A study of Homo sapiens with 16 samples.

Results

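Genes of the hypoxia response and of glycolysis were described in xenograft tumours of BT474, a HER2-positive human breast cancer cell line, with knockdown of the phosphatase SHP2 or with a control hairpin. The members were a list of 36 named genes, of which 34 had a transcript cluster annotated to them alone, among 18377 genes measured that way. PGAM1, a phosphoglycerate mutase, appeared in clusters that also carry other symbols, and no cluster carried the symbol of CA9, a carbonic anhydrase. Neither was analysed here. The 34 measured genes comprised 10 of hypoxia signalling and matrix, 5 oxygen sensors and mitochondrial regulators, 13 of glucose entry and early glycolysis, and 6 of late glycolysis and lactate.

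The cells carried a lentiviral vector that a doxycycline signal switches on, expressing SHP2 miR1 or SHP2 miR2, microRNA hairpins against SHP2, or the control hairpin CTRL miR. Tumours grew orthotopically in mice lacking normal immunity, in the fat pad of a mammary gland, and once tumours had formed all groups, controls included, drank doxycycline (2 g per L) to day 30. Total RNA (100 ng) of 7 SHP2 miR1, 3 SHP2 miR2 and 6 CTRL miR tumours was hybridised to a human gene array, and values are log2 signals. The labels tie no tumour to an animal or a clone, so p-values measure the spread between these tumours.

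When oxygen falls, the prolyl hydroxylases that mark the alpha subunits of the hypoxia-inducible factors (HIFs) for destruction slow down, and the HIFs switch on genes for blood vessel growth, matrix modification, glucose import and glycolysis. Late glycolytic enzymes turn triose phosphates into pyruvate, and lactate dehydrogenase interconverts pyruvate and lactate. The pyruvate dehydrogenase kinases inhibit pyruvate dehydrogenase in mitochondria, which limits the conversion of pyruvate to acetyl-CoA. In solid tumours these genes are commonly read as a sign of low oxygen, and many of the enzymes are abundant in tumour cells in any case.

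PTPN11, which encodes SHP2, had log2 signals of 6.59, 6.97 and 7.18 (lowest, median and highest) in SHP2 miR1 tumours, 6.52, 6.52 and 6.34 in SHP2 miR2 tumours 1 to 3, and 8.23, 8.39 and 8.61 in CTRL miR tumours. It fell by 1.47 on the log2 scale with miR1 (adjusted p = 5.11e-08, limma) and fell by 1.94 with miR2 (adjusted p = 6.97e-09), and the groups did not overlap. Controls 2 and 5 differed from the rest of their group. IRS4, an insulin receptor adaptor, had 2.97 to 3.91 in the knockdown tumours, 3.16 and 3.77 in controls 2 and 5, and 7.14 to 8.29 in controls 1, 3, 4 and 6, so member results are also given against controls 2 and 5 alone. Levels of 5 small noncoding RNAs divided the arrays into set A (SHP2 miR1 tumours 1 to 4 and controls 1 to 3) and set B (SHP2 miR1 tumours 5 to 7, all SHP2 miR2 tumours and controls 4 to 6). The labels give no batch. Of 11 luminal markers of BT474, 9 lay above the array median on every array. These markers also moved: with miR2 3 were higher and 1 lower, and between hairpins 5 were higher and 2 lower in SHP2 miR1 tumours. PGR, the progesterone receptor gene, rose by 1.06 with miR1 and fell by 2.43 with miR2. The part of this in the members' differences was not tested.

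With the miR2 hairpin, 3 of 6 genes of late glycolysis (LDHB, ENO1 and LDHA) and 5 of 13 genes of glucose entry and early glycolysis were lower. Of the 34 genes, 12 passed the test against CTRL miR (adjusted p below 0.05 over all genes, limma), 1 higher and 11 lower. Over all 18377 genes, 30.0% passed in this comparison, 11.8% higher and 18.2% lower. The members' median difference was -0.31, against 0.02 over all genes. With miR1, 1 member passed, the glucose transporter gene SLC2A3, which was lower, where 4.76% of all genes passed (1.38% higher and 3.38% lower). The members' median difference with miR1 was -0.01, against 0.02 over all genes. For the mean of both hairpins, 12 members passed, 1 higher and 11 lower, where 18.6% of all genes passed (5.52% higher and 13.1% lower). Between the hairpins, 11 members differed, 10 higher and 1 lower in SHP2 miR1 than in SHP2 miR2 tumours, where 22.5% of all genes passed (14.3% higher and 8.22% lower). SLC2A3 did not pass with miR2, so no member passed with each hairpin in limma (6 members had an unadjusted p below 0.05 with miR1 and 16 with miR2), and 17 of the 34 passed in none of these comparisons. SHP2 miR2 tumours lay wholly above the controls for 1 member and wholly below for 9, against 6.55% and 11.2% of all genes. SHP2 miR1 tumours overlapped the controls for every member, where only 0.745% of all genes lay wholly above and 0.555% wholly below. Each comparison with CTRL miR used the same control arrays, and the number of arrays limits the precision.

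The 12 genes that passed for the mean of both hairpins were ANKRD37, which rose by 0.43 (adjusted p = 0.0101), and 11 lower genes, from LDHB at -1.67 ± 0.32 (adjusted p = 0.00221) and SLC2A3 at -0.81 (adjusted p = 0.0108) to PFKFB3 at -0.44 (adjusted p = 0.0291). The calls of ANKRD37, LDHB, SLC2A3, ENO1, LDHA, LOX and TPI1 held without any single tumour. That of EGLN3 was lost without any tumour other than SHP2 miR1 tumours 1 and 5 (adjusted p = 0.0533 to 0.0900). PDK1 and PFKP each lost theirs without control 1, 3, 4 or 6 or SHP2 miR2 tumour 1 or 3 (adjusted p = 0.0519 to 0.117). PFKFB3 lost its call without control 1, 3 or 6 or SHP2 miR2 tumour 2 or 3 (adjusted p = 0.0556 to 0.0904). PFKM lost its call without control 1, 3, 4 or 6, SHP2 miR1 tumour 1, 4, 5 or 7 or SHP2 miR2 tumour 2 or 3 (adjusted p = 0.0508 to 0.143).

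**Figure D1:**
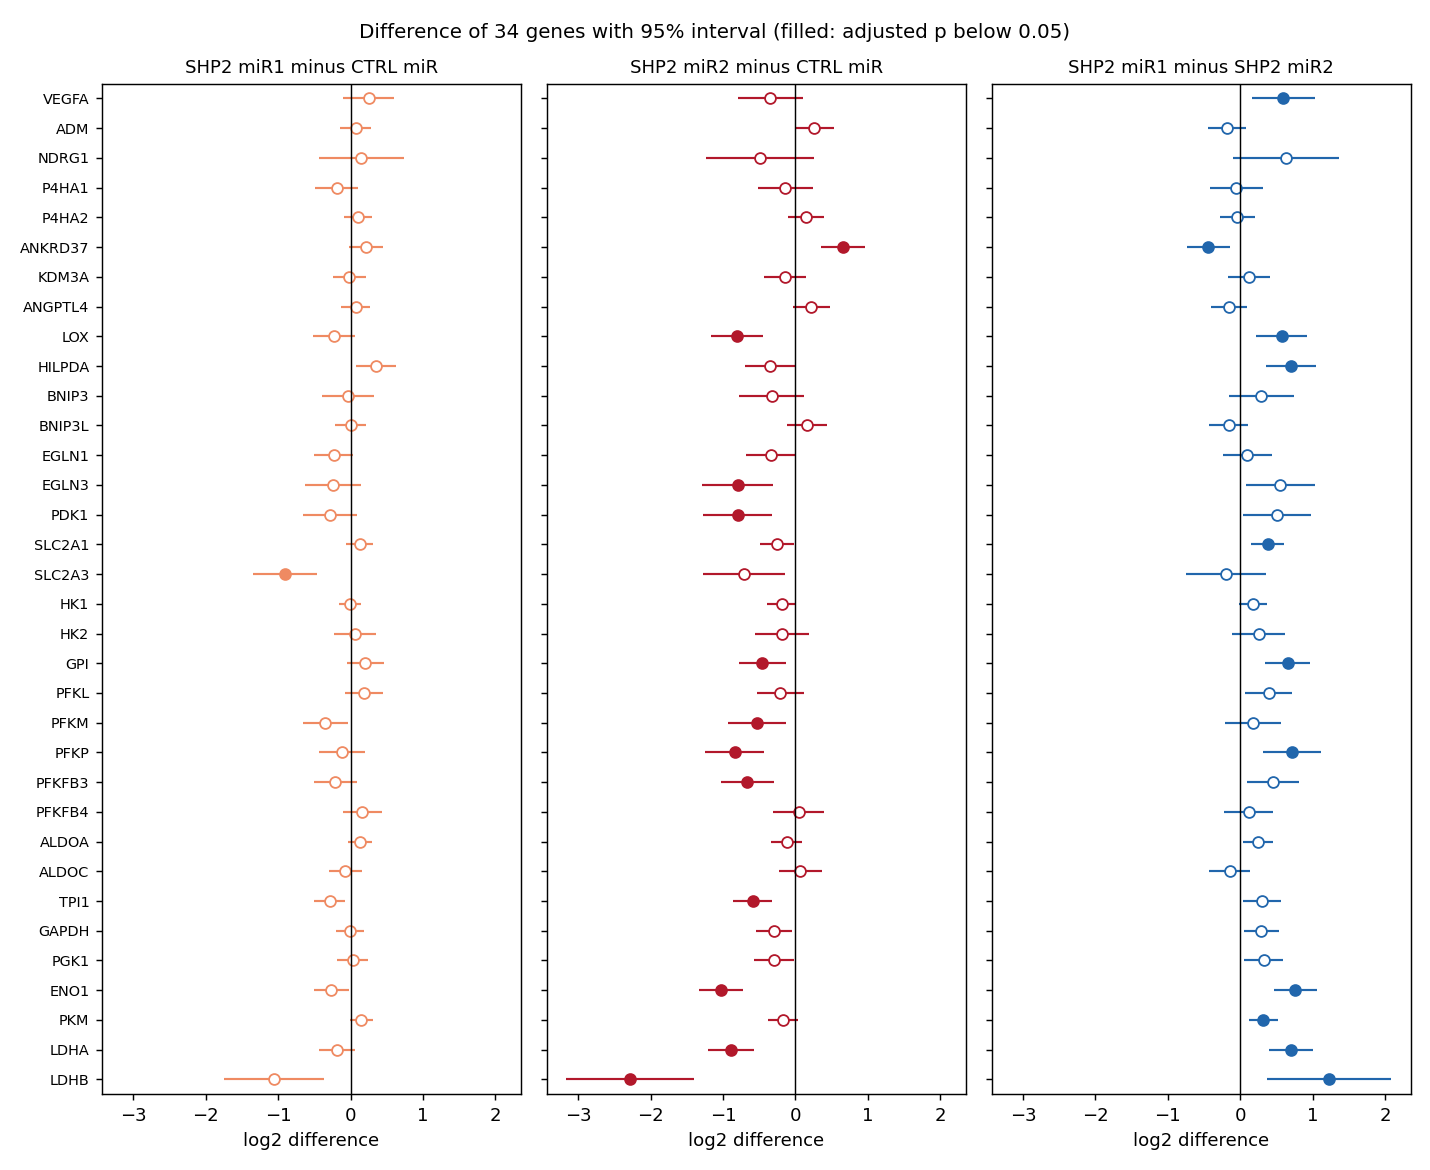
Log2 differences of the 34 genes (rows, by role) for SHP2 miR1 minus CTRL miR, SHP2 miR2 minus CTRL miR and SHP2 miR1 minus SHP2 miR2, with 95% intervals; filled points passed at an adjusted p below 0.05. In the miR2 panel 12 points are filled, and in the miR1 panel 1.

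**Figure D2:**
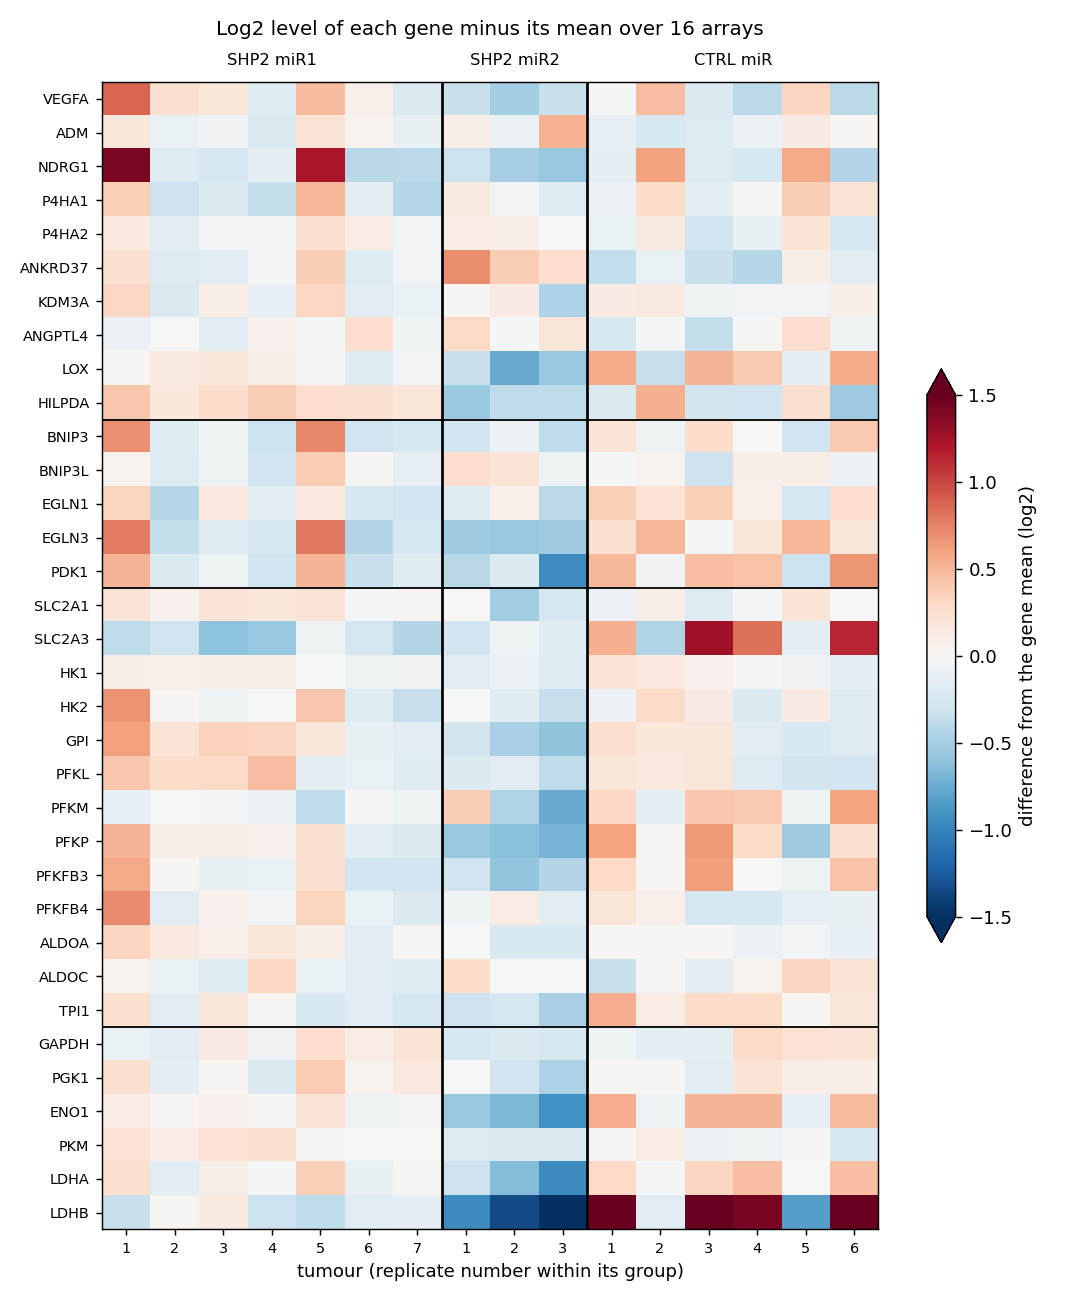
Log2 level of each gene (rows, by role) minus its mean over the 16 arrays, for each tumour (columns), with the colour scale ending at 1.5 in either direction. LDHB, ENO1 and LDHA are low in all 3 SHP2 miR2 tumours, and NDRG1 is high in SHP2 miR1 tumours 1 and 5.

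Among the hypoxia signal and matrix genes, 2 of 10 passed with miR2, in opposite directions. ANKRD37, an ankyrin repeat protein encoded by a HIF target gene, had log2 signals of 5.67, 5.81 and 6.23 (lowest, median and highest) in SHP2 miR1 tumours, 6.55, 6.22 and 6.11 in SHP2 miR2 tumours 1 to 3, and 5.44, 5.61 and 5.95 in CTRL miR tumours. All 3 SHP2 miR2 tumours lay above every control. The gene rose by 0.65 ± 0.14 (SE) with miR2 (adjusted p = 0.00304), and the call held without any single tumour. Between the hairpins it was lower in SHP2 miR1 tumours by a log2 difference of -0.44 ± 0.14 (adjusted p = 0.0324). That call was lost without SHP2 miR1 tumour 2, 3, 4 or 6 or SHP2 miR2 tumour 1 or 3 (adjusted p = 0.0502 to 0.206).

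LOX, the lysyl oxidase that crosslinks collagen, moved the other way. Its signals were 4.79, 5.01 and 5.14 in SHP2 miR1 tumours, 4.65, 4.23 and 4.41 in SHP2 miR2 tumours 1 to 3, and 4.63, 5.43 and 5.54 in CTRL miR tumours. SHP2 miR2 tumours 2 and 3 lay below every control, while tumour 1 lay between controls 2 and 5, whose values were 4.63 and 4.84. LOX fell by 0.81 with miR2 (SE 0.17, adjusted p = 0.00263), and it was higher in SHP2 miR1 than in SHP2 miR2 tumours by 0.57 (adjusted p = 0.0233). It lay at the 34.4th percentile of genes by mean level, with its lowest signals in SHP2 miR2 tumours, so the size of its fall is uncertain. The difference between hairpins lost its call without SHP2 miR2 tumour 2 or 3 (adjusted p = 0.0723 and 0.102).

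HILPDA, a lipid droplet protein, and VEGFA, the vascular growth factor, differed between the hairpins. HILPDA had 8.60, 8.69 and 8.85 in SHP2 miR1 tumours, 7.89, 8.07 and 8.07 in SHP2 miR2 tumours 1 to 3, and 7.90, 8.21 and 8.98 in CTRL miR tumours. Every SHP2 miR1 tumour lay above every SHP2 miR2 tumour, with the controls spanning both, and the difference between the hairpins was 0.70 ± 0.16 (adjusted p = 0.00592). This call held without any single tumour. Against CTRL miR, HILPDA passed when 1 control was left out, with miR1 without control 2 (0.48, adjusted p = 0.0063) or 5 (0.42, adjusted p = 0.049) and with miR2 without control 6 (-0.44, adjusted p = 0.0455). VEGFA had 7.33, 7.70 and 8.42 in SHP2 miR1 tumours, 7.21, 7.04 and 7.22 in SHP2 miR2 tumours 1 to 3, and 7.14, 7.43 and 8.01 in CTRL miR tumours. The SHP2 miR2 tumours lay below every SHP2 miR1 tumour, with tumours 1 and 3 among the controls and tumour 2 below them. Its difference between the hairpins of 0.60 ± 0.21 (adjusted p = 0.047) was lost without any 1 of 10 tumours (adjusted p = 0.0505 to 0.137): controls 1 and 3, SHP2 miR1 tumours 1, 2, 3, 5 and 6, and each SHP2 miR2 tumour.

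NDRG1, a stress-induced gene and a common hypoxia marker, passed in no comparison, but its tumours were far apart within groups. It had 8.68 and 8.48 in SHP2 miR1 tumours 1 and 5 and 6.84 to 7.11 in the other 5, 6.94, 6.77 and 6.69 in SHP2 miR2 tumours 1 to 3, and 7.87 and 7.83 in controls 2 and 5 with 6.82 to 7.13 in the other 4. The high SHP2 miR1 tumours came from both array sets. Averaged over all measured members, the level was 7.86 and 7.78 in SHP2 miR1 tumours 1 and 5 and 7.42 to 7.57 in the other 5. P4HA1, KDM3A and PFKFB4 were also highest of their group in tumours 1 and 5. The remaining 5 genes of this role, ADM, ANGPTL4, KDM3A, P4HA1 and P4HA2, had differences between -0.19 and 0.26 against CTRL miR with either hairpin, and none passed.

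Of the 5 oxygen sensors and mitochondrial regulators, EGLN3 and PDK1 passed with miR2, both lower. EGLN3, a HIF prolyl hydroxylase that is itself induced by hypoxia, had 6.80, 7.01 and 8.04 in SHP2 miR1 tumours, 6.72, 6.68 and 6.71 in SHP2 miR2 tumours 1 to 3, and 7.22, 7.44 and 7.74 in CTRL miR tumours. The SHP2 miR2 tumours lay close together below every other tumour, and SHP2 miR1 tumours 1 and 5, at 8.02 and 8.04, lay above every control. EGLN3 fell by 0.80 with miR2 (SE 0.23, adjusted p = 0.0168), a call lost without SHP2 miR2 tumour 1 or 3 (adjusted p = 0.0575 and 0.065).

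PDK1, a pyruvate dehydrogenase kinase, had 6.57, 6.73 and 7.42 in SHP2 miR1 tumours, 6.49, 6.70 and 5.96 in SHP2 miR2 tumours 1 to 3, and 6.59, 7.35 and 7.57 in CTRL miR tumours. SHP2 miR2 tumour 2 lay above control 5, and all 3 SHP2 miR2 tumours lay below the other controls. PDK1 fell by 0.80 with miR2 (SE 0.23, adjusted p = 0.0143), a call lost without SHP2 miR2 tumour 3 (adjusted p = 0.127). SHP2 miR1 tumours 1 and 5 were again the highest of their group, both at 7.42, and BNIP3, a mitophagy receptor, had 7.96 and 7.998 in the same pair against 6.96 to 7.22 in the other 5 tumours of that group. BNIP3, BNIP3L and EGLN1 passed in no comparison.

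**Figure D3:**
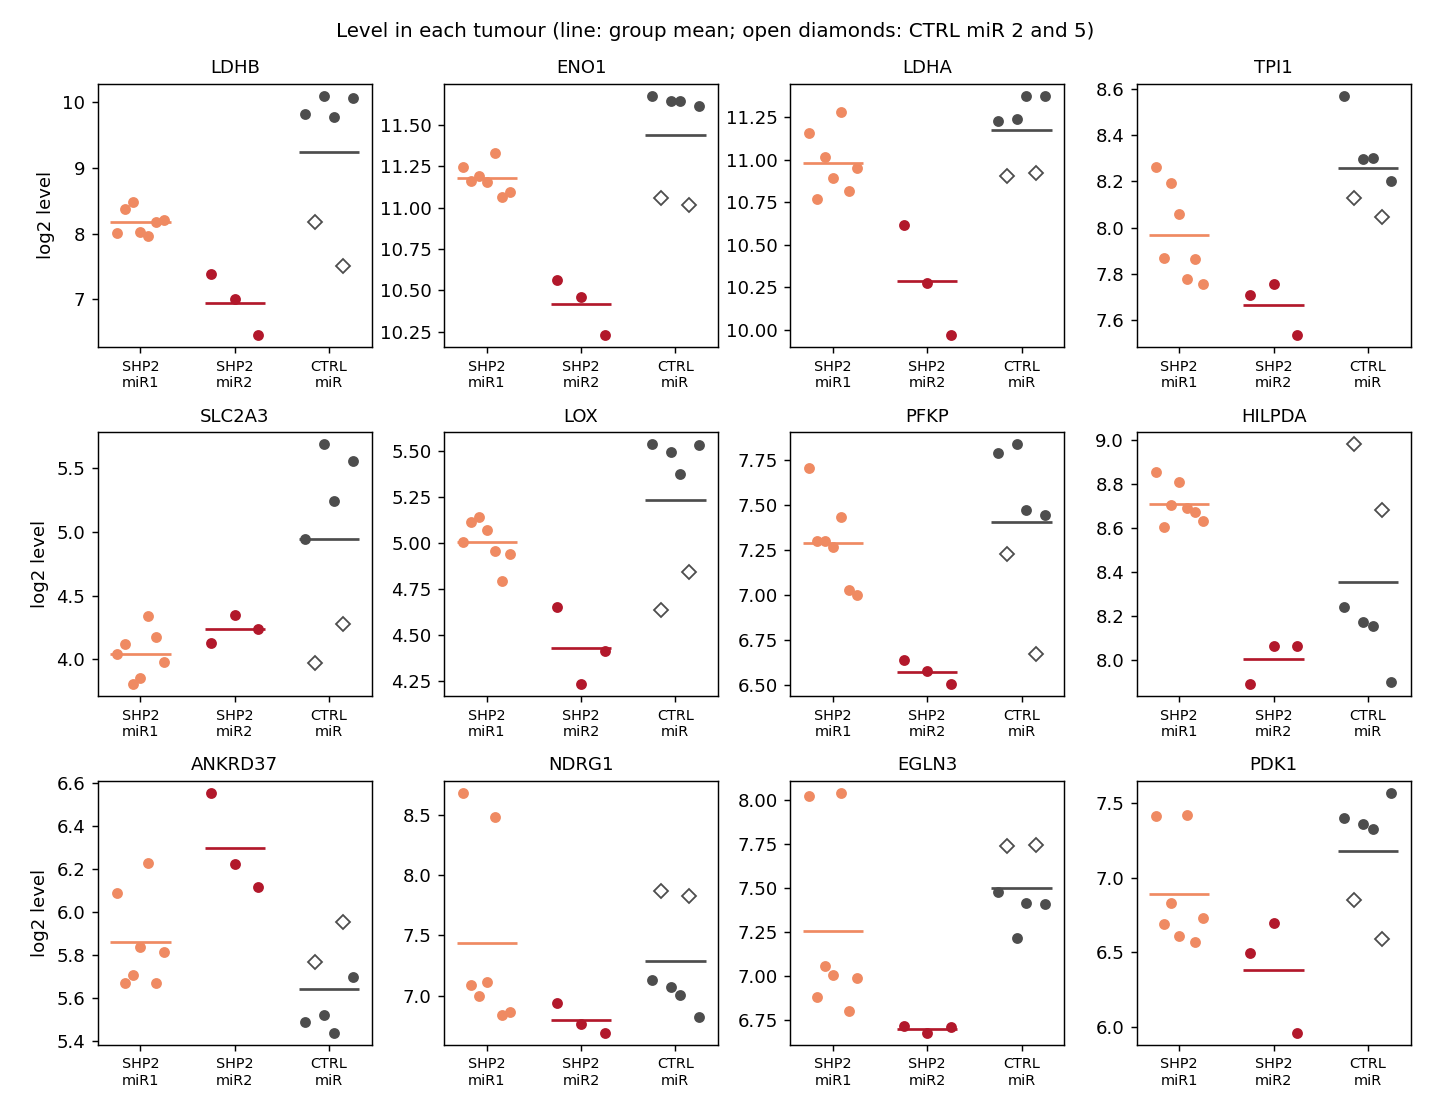
Log2 level of 12 genes in each tumour, for 7 SHP2 miR1, 3 SHP2 miR2 and 6 CTRL miR tumours, with lines at group means and open diamonds for controls 2 and 5. The 3 SHP2 miR2 tumours lie below every other tumour for LDHB, ENO1 and LDHA, and controls 2 and 5 lie below the other controls for those genes.

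Glucose entry and early glycolysis had 5 of 13 genes lower with miR2 and none higher. SLC2A3, a high-affinity glucose transporter, had 3.81, 4.04 and 4.34 in SHP2 miR1 tumours, 4.13, 4.35 and 4.24 in SHP2 miR2 tumours 1 to 3, and 3.97, 5.10 and 5.69 in CTRL miR tumours. All 10 knockdown tumours lay below controls 1, 3, 4 and 6 (4.95 to 5.69), and controls 2 and 5, at 3.97 and 4.28, lay among them. SLC2A3 fell by 0.90 with miR1 (SE 0.21, adjusted p = 0.0208), a call lost without control 3, 4 or 6 (adjusted p = 0.0638 to 0.0702). Its difference with miR2 was -0.71 (adjusted p = 0.0546), and it passed without control 2 (-0.90, adjusted p = 0.00499) or 5 (-0.84, adjusted p = 0.0134). SLC2A3 lay at the 23.8th percentile of genes by mean level. Its knockdown values lay near the lower quartile of all transcript clusters on the arrays (3.72 to 4.04). The size of its fall is therefore uncertain, and the filter on low genes removed it. Whether its probes also read the near-identical SLC2A14 was not tested. Against controls 2 and 5 alone the difference for both hairpins was 0.02.

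SLC2A1, the main glucose transporter of many tumours, had 7.82, 8.01 and 8.06 in SHP2 miR1 tumours, 7.84, 7.33 and 7.58 in SHP2 miR2 tumours 1 to 3, and 7.65, 7.82 and 8.04 in CTRL miR tumours. It was higher in SHP2 miR1 than in SHP2 miR2 tumours by 0.38 (adjusted p = 0.0199), a call lost without SHP2 miR2 tumour 2 or 3 (adjusted p = 0.0885 and 0.0851). SHP2 miR2 tumour 1 lay within the range of the other groups, and without it SLC2A1 passed with miR2 against CTRL miR (-0.38, adjusted p = 0.0366). HK2, a hexokinase, passed in no comparison, with 7.39, 7.74 and 8.41 in SHP2 miR1 tumours, 7.73, 7.55 and 7.39 in SHP2 miR2 tumours 1 to 3, and 7.53, 7.75 and 8.03 in CTRL miR tumours, groups that overlapped throughout. SHP2 miR1 tumours 1 and 5, at 8.41 and 8.14, had the highest HK2 of all tumours.

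GPI, glucose-6-phosphate isomerase, had 9.57, 9.93 and 10.34 in SHP2 miR1 tumours, 9.45, 9.23 and 9.12 in SHP2 miR2 tumours 1 to 3, and 9.49, 9.73 and 9.96 in CTRL miR tumours. Every SHP2 miR2 tumour lay below every other tumour. GPI was higher in SHP2 miR1 than in SHP2 miR2 tumours by 0.65 ± 0.15 (adjusted p = 0.00591) and fell by 0.45 with miR2 against CTRL miR (adjusted p = 0.0341). The call against CTRL miR was lost without control 1, 2 or 3 or SHP2 miR2 tumour 2 or 3 (adjusted p = 0.053 to 0.163), and the call between hairpins without SHP2 miR2 tumour 3 (adjusted p = 0.0561).

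Phosphofructokinase commits sugar to glycolysis, and 2 of its isozyme genes were lower with miR2. PFKP, the platelet-type isozyme, had 6.997, 7.30 and 7.71 in SHP2 miR1 tumours, 6.63, 6.57 and 6.50 in SHP2 miR2 tumours 1 to 3, and 6.67, 7.46 and 7.84 in CTRL miR tumours. The SHP2 miR2 tumours lay below every other tumour, with control 5 at 6.67 the nearest. PFKP fell by 0.84 (SE 0.20, adjusted p = 0.00439), and it was higher in SHP2 miR1 than in SHP2 miR2 tumours by 0.72 (adjusted p = 0.0131, or 0.0783 without SHP2 miR2 tumour 3).

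PFKM, the muscle-type isozyme, had 6.42, 6.72 and 6.82 in SHP2 miR1 tumours, 7.17, 6.35 and 6.04 in SHP2 miR2 tumours 1 to 3, and 6.66, 7.16 and 7.39 in CTRL miR tumours. SHP2 miR2 tumour 1 lay among the controls. The difference of -0.53 with miR2 (adjusted p = 0.0436) was lost without any 1 of 12 tumours, all but controls 2 and 5, SHP2 miR1 tumour 5 and SHP2 miR2 tumour 1, and was -0.29 without SHP2 miR2 tumour 3 (adjusted p = 0.33). PFKL, the liver-type isozyme, did not pass.

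PFKFB3, whose product makes the activator of phosphofructokinase, had 5.74, 5.94 and 6.60 in SHP2 miR1 tumours, 5.74, 5.44 and 5.59 in SHP2 miR2 tumours 1 to 3, and 5.96, 6.20 and 6.66 in CTRL miR tumours, and fell by 0.66 with miR2 (SE 0.18, adjusted p = 0.01). TPI1, triose phosphate isomerase, had 7.75, 7.87 and 8.26 in SHP2 miR1 tumours, 7.71, 7.76 and 7.54 in SHP2 miR2 tumours 1 to 3, and 8.05, 8.25 and 8.57 in CTRL miR tumours. For both genes every SHP2 miR2 tumour lay below every control. TPI1 fell by 0.59 with miR2 (SE 0.13, adjusted p = 0.00304). Neither miR2 call was lost without any single tumour. HK1, PFKFB4, ALDOA and ALDOC had differences between -0.19 and 0.16 against CTRL miR with either hairpin and did not pass.

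In late glycolysis and lactate, 3 of 6 genes were lower with miR2 and all 6 differences were negative. The mean level of the 6 genes lay between 10.16 and 10.35 in SHP2 miR1 tumours, 9.44 and 9.83 in SHP2 miR2 tumours, and 10.11 and 10.68 in CTRL miR tumours. LDHB, the lactate dehydrogenase subunit B, had 7.96, 8.17 and 8.48 in SHP2 miR1 tumours, 7.38, 7.0 and 6.46 in SHP2 miR2 tumours 1 to 3, and 7.51, 9.78 and 10.09 in CTRL miR tumours. Control 2, at 8.18, lay among the SHP2 miR1 tumours and control 5, at 7.51, below them, while controls 1, 3, 4 and 6 lay between 9.76 and 10.09. LDHB fell by 2.29 with miR2 (SE 0.42, adjusted p = 0.000863), to 0.205 times the control level. Its difference with miR1 was -1.06 (adjusted p = 0.0739), which passed without control 2 or 5 (adjusted p = 0.0139 and 0.0012). It was higher in SHP2 miR1 than in SHP2 miR2 tumours by 1.23 (adjusted p = 0.0394), a call lost without SHP2 miR1 tumour 1, 2, 3, 4 or 6 or any SHP2 miR2 tumour (adjusted p = 0.0507 to 0.221).

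ENO1, the enolase that forms phosphoenolpyruvate, had 11.06, 11.16 and 11.33 in SHP2 miR1 tumours, 10.56, 10.46 and 10.23 in SHP2 miR2 tumours 1 to 3, and 11.02, 11.63 and 11.68 in CTRL miR tumours. LDHA, the lactate dehydrogenase subunit A, had 10.77, 10.95 and 11.28 in SHP2 miR1 tumours, 10.62, 10.27 and 9.97 in SHP2 miR2 tumours 1 to 3, and 10.90, 11.23 and 11.38 in CTRL miR tumours. For both genes every SHP2 miR2 tumour lay below every other tumour. ENO1 fell by 1.02 (SE 0.15, adjusted p = 8.82e-05) and LDHA fell by 0.89 (SE 0.15, adjusted p = 0.000375) with miR2. ENO1 was higher in SHP2 miR1 than in SHP2 miR2 tumours by 0.76 (adjusted p = 0.00123) and LDHA by 0.70 (adjusted p = 0.00285). These 4 calls held without any single tumour. With miR1 the ENO1 difference was -0.26 (adjusted p = 0.216, or 0.0399 without control 5).

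PKM, pyruvate kinase, had 9.25, 9.38 and 9.51 in SHP2 miR1 tumours, 9.07, 9.06 and 9.05 in SHP2 miR2 tumours 1 to 3, and 9.03, 9.25 and 9.38 in CTRL miR tumours. Every SHP2 miR2 tumour lay below every SHP2 miR1 tumour. It was higher in SHP2 miR1 than in SHP2 miR2 tumours by 0.32 (adjusted p = 0.0237), a call lost without SHP2 miR2 tumour 1 or 3 (adjusted p = 0.0774 and 0.0988). PGK1, phosphoglycerate kinase, had 9.49, 9.75 and 10.08 in SHP2 miR1 tumours, 9.70, 9.41 and 9.23 in SHP2 miR2 tumours 1 to 3, and 9.54, 9.76 and 9.90 in CTRL miR tumours, and it did not pass. GAPDH, often used to normalise expression, had 11.77 to 12.17 in SHP2 miR1 tumours, 11.67 to 11.70 in SHP2 miR2 tumours and 11.78 to 12.20 in CTRL miR tumours, with a miR2 difference of -0.30 (adjusted p = 0.0653). With the array set as a block GAPDH and PGK1 passed with miR2, at -0.44 (adjusted p = 0.00159) and -0.39 (adjusted p = 0.0291).

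The miR2 differences were also taken within the arrays of set B, where 13.9% of all genes passed. There 8 members passed, among them ENO1 at -1.0 (adjusted p = 0.0048), LDHA at -0.94 (adjusted p = 0.00969), LDHB at -2.16 (adjusted p = 0.0173), LOX at -0.82 (adjusted p = 0.0126), TPI1 at -0.52 (adjusted p = 0.0159) and ANKRD37 at 0.60 (adjusted p = 0.0451). EGLN3, at -0.82 (adjusted p = 0.0479), and GAPDH, at -0.47 (adjusted p = 0.0142), completed them. Between the hairpins in set B, 4 members passed, where 5.29% of all genes did: HILPDA, GAPDH, ENO1 and LDHA. PDK1, GPI, PFKM, PFKP and PFKFB3 did not pass with miR2 there (adjusted p = 0.0522 to 0.188). In fits with the array set as a block, GPI (adjusted p = 0.0914) and PFKM (adjusted p = 0.072) lost their miR2 calls, and VEGFA, ANKRD37, LOX, PFKP, PKM and LDHB lost theirs between hairpins (adjusted p = 0.0688 to 0.172). SLC2A3 had differences with miR1 of -0.91 in set A and -0.86 in set B (adjusted p = 0.257 and 0.326).

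Quantile normalization or cyclic loess of the deposited values ended some calls. EGLN3, GPI and PFKM no longer passed with miR2 under either (adjusted p = 0.0731 to 0.227), nor did PDK1 under cyclic loess (adjusted p = 0.0502). SLC2A3 passed with miR2 under each, at -0.84 and -0.91. Between hairpins VEGFA, HILPDA, SLC2A1, PKM and LDHB were lost under each (adjusted p = 0.0634 to 0.531), and GPI and PFKP under cyclic loess. ENO1, LDHA, LOX and ANKRD37 passed with miR2 and between hairpins under each.

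Which controls were used changed the picture for several members. Against controls 2 and 5 alone, 3 members passed with miR2, all lower, where 4.37% of all genes passed. HILPDA was then -0.82 (adjusted p = 0.00133), against -0.35 with all controls. ENO1 was -0.62 (adjusted p = 0.0121), and LDHB was -0.90 (adjusted p = 0.0353). LDHA was -0.63 (adjusted p = 0.0576), while LOX was -0.31 and PDK1 was -0.33, neither of which passed. SHP2 miR2 tumours lay wholly below controls 2 and 5 for 19 members, NDRG1, EGLN3 and VEGFA among them, and wholly above for 1. Over all genes, 18.0% lay wholly below and 10.7% wholly above. The members' median miR2 difference was -0.31 against all controls and -0.30 against controls 2 and 5. For both hairpins together no member passed against these controls, where 0.751% of all genes did, and 3 members had an unadjusted p below 0.05. With miR1 alone no member passed, where 0.136% of all genes did, and 0 had an unadjusted p below 0.05. Against controls 1, 3, 4 and 6 alone, 9 members passed with miR1, where 18.8% of all genes did, and 16 with miR2, where 45.9% did. With miR1 VEGFA and HILPDA were then higher, at 0.46 and 0.59, and 7 were lower, among them LDHB at -1.75, SLC2A3 at -1.32 and ENO1 at -0.47.

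Within the control group, 9 of 34 members lay wholly higher in controls 2 and 5 than in controls 1, 3, 4 and 6, and 10 wholly lower, against 16.6% and 19.0% of all genes. The higher ones included NDRG1, VEGFA (8.01 and 7.87, against 7.14 to 7.53) and HILPDA (8.98 and 8.68, against 7.90 to 8.24). Lower ones included LDHB, SLC2A3, ENO1 (11.06 and 11.02, against 11.61 to 11.68), LDHA (10.90 and 10.92, against 11.23 to 11.38) and PDK1. This is a description of the controls without a test.

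**Figure D4:**
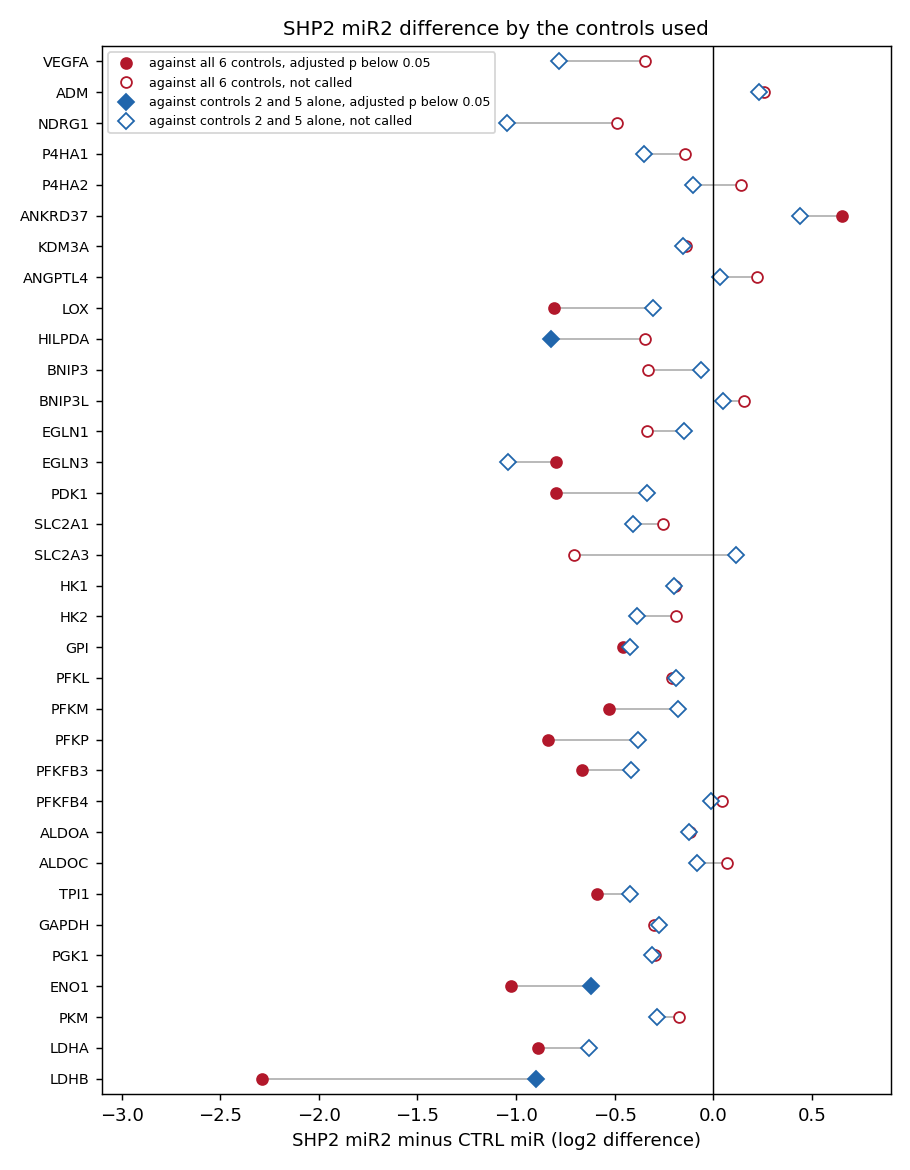
Log2 difference of SHP2 miR2 tumours from CTRL miR tumours for the 34 genes (rows, by role), against all 6 controls (circles) and against controls 2 and 5 alone (diamonds), filled where the adjusted p was below 0.05. Against all controls LDHB lies at -2.29 and HILPDA at -0.35, and against controls 2 and 5 they lie at -0.90 and -0.82.

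Members varied together within groups. Over deviations from the group means on 16 arrays, the median correlation over 561 pairs of members was 0.24, against -0.01 over pairs of all genes, and 26.6% of member pairs exceeded 0.5, against 12.3% of all pairs. NDRG1 tracked EGLN3 (r = 0.95) and HK2 (r = 0.92), BNIP3 tracked PDK1 (r = 0.90), and ENO1 tracked LDHB (r = 0.90). HILPDA ran against SLC2A3 (r = -0.87), LOX (r = -0.86) and LDHB (r = -0.85). In all, 28 member pairs lay below -0.5. These values describe arrays that share the array sets and the difference among controls. With controls 2 and 5 given a mean of their own, the median over member pairs was 0.29. Then 31.4% of member pairs exceeded 0.5, against 12.2% of all pairs, and 17 lay below -0.5.

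Other genes of the same pathways were counted from lists, again against CTRL miR. With miR2, 11.8% of all genes were higher and 18.2% lower. Of 14 HIF regulators, 3 (21.4%) passed with miR2, a share below the 30.0% of all genes, 1 higher and 2 lower: HIF3A rose by 0.39, and HIF1AN, the asparagine hydroxylase that restrains HIF, and CUL2, a subunit of the ligase that degrades HIF, fell by 0.53 each. None of the 14 passed with miR1 in limma, where 5 had an unadjusted p below 0.05. Between the hairpins, 6 of the 14 (42.9%) passed, 4 higher and 2 lower in SHP2 miR1 tumours, where 22.5% of all genes did. Of 32 other hypoxia-induced genes, 7 were higher and 6 lower with miR2. The higher ones were at a share above that of all genes, and the lower ones at a share near it. Among the 32 the secreted glycoprotein gene STC2 fell by 0.98 (adjusted p = 2.33e-05) and DDIT4, an mTOR inhibitor, fell by 0.91 (adjusted p = 0.00201), while PPP1R3C, a glycogen-targeting phosphatase subunit, rose by 0.90 (adjusted p = 7.02e-05).

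Of 18 other glycolysis isozymes and branches, 2 were higher and 6 lower with miR2. PGM2, a phosphoglucomutase, fell by 0.90 (adjusted p = 5.48e-05), and PFKFB1 rose by 0.55 (adjusted p = 0.00451). The pentose phosphate pathway had 6 of 7 genes lower with miR2, and with miR1 the 7 differences lay between -0.11 and 0.03. Its transketolase TKT fell by 0.76 (adjusted p = 0.00559) and PGD, a dehydrogenase, fell by 0.70 (adjusted p = 0.00151). Of 11 genes for the entry of pyruvate into mitochondria, 5 were lower and none higher with miR2. PDK4, another pyruvate dehydrogenase kinase, fell by 1.38 (adjusted p = 2.84e-05), and MPC1, a subunit of the pyruvate carrier, fell by 0.96 with miR2 (adjusted p = 0.0106) and by 0.74 with miR1 (adjusted p = 0.0425). The mean level of these 11 genes was 7.39 and 7.41 in controls 2 and 5, within the SHP2 miR1 range of 7.30 to 7.50. In controls 1, 3, 4 and 6 it was 7.59 to 7.67.

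Markers of host cell types were also read on this human array. The mean level of 14 muscle markers lay between 4.59 and 5.67 in SHP2 miR1 tumours, 4.91 and 6.15 in SHP2 miR2 tumours, and 4.58 and 4.95 in CTRL miR tumours. That of 12 macrophage markers lay between 4.22 and 4.48 in SHP2 miR1 tumours, 4.39 and 4.82 in SHP2 miR2 tumours, and 4.08 and 4.46 in CTRL miR tumours. Fibroblast markers lay between 5.23 and 5.42 in SHP2 miR1, 5.43 and 5.505 in SHP2 miR2 and 5.10 and 5.42 in CTRL miR tumours. The ranges of all 3 lists were highest at their upper end in SHP2 miR2 tumours. Endothelial markers lay between 4.35 and 4.57 in SHP2 miR1, 4.46 and 4.75 in SHP2 miR2 and 4.27 and 4.61 in CTRL miR tumours. Blood markers lay between 4.19 and 4.57 in SHP2 miR1, 4.36 and 4.69 in SHP2 miR2 and 4.05 and 4.55 in CTRL miR tumours. SHP2 miR2 tumour 2 lay within the control range for the muscle (4.91), macrophage (4.39), endothelial (4.46) and blood (4.36) lists. For the muscle list, SHP2 miR1 tumours 2, 3, 6 and 7 (5.32 to 5.67) also lay above every control. With miR2, 7 of 12 macrophage, 4 of 14 muscle, 3 of 10 endothelial and 2 of 5 blood markers were higher and none lower, and of 12 fibroblast markers 7 were higher and 2 lower, where 11.8% of all genes were higher and 18.2% lower. Of the 14 muscle markers, 3 (MYH1, MYH4 and MYL1) lay below the lower quartile of genes on every array. So did 5 of 12 macrophage (PTPRC, MRC1, CD163, FCGR3A and AIF1) and 3 of 12 fibroblast markers (LUM, DCN and POSTN). The same held for 4 of 10 endothelial (PECAM1, KDR, TEK and EMCN) and 2 of 5 blood markers (HBB and PPBP). The other measured markers did not, and 1 muscle and 2 fibroblast markers lay above the median of genes on every array. SHP2 miR2 tumours 1 and 3 also had the narrowest spread of values over genes, with SDs of 1.63 and 1.61 against 1.71 to 1.88 on the other arrays. The part of the markers and of this spread in the results was not tested, and in whole tumours fewer cells of a type and less RNA per cell cannot be told apart.

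Promoters are shown for the late glycolysis genes LDHA and ENO1, for LOX, which was lower with miR2 as they were, and for ANKRD37, which was higher. The HIF binding core was searched as ACGTG and GCGTG on both strands in the 250 bases before the start, with overlapping matches counted, so that CACGTG counts on each strand. The sequences are those of RefSeq (GRCh38.p14), 5′ to 3′ on the gene's strand, at chr11:18394313-18394562 (LDHA, plus strand), chr1:8878687-8878936 (ENO1, minus strand), chr5:122078260-122078509 (LOX, minus strand) and chr4:185396591-185396840 (ANKRD37, plus strand), with the matches in capitals.
LDHA: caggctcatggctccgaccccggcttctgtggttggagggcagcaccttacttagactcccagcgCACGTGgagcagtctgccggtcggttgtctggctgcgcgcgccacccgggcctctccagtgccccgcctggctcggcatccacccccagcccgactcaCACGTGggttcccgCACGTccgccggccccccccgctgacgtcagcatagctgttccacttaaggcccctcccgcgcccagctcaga
ENO1: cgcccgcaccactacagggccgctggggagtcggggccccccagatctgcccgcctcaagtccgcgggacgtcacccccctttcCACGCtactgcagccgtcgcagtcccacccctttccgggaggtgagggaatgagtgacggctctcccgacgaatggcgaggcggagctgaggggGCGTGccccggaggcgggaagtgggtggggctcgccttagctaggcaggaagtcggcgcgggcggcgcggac
LOX: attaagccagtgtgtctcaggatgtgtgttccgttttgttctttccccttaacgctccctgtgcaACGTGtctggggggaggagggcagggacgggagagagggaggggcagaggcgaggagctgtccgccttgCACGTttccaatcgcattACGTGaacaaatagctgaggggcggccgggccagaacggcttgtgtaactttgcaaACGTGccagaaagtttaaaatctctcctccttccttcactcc
ANKRD37: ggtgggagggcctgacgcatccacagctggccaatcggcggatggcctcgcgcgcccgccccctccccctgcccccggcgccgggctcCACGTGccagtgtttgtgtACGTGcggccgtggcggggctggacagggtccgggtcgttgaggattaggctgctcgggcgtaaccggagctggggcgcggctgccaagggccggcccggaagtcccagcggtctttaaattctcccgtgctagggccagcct
LDHA held 5 matches, LOX 4 and ANKRD37 3, all of ACGTG, and ENO1 held 2 of GCGTG. Promoters of 29 measured members were in the table. Of these, 19 (65.5%) held either core, against 51.2% of 14210 measured genes, and 13 (44.8%) held ACGTG, against 21.1%. The windows of LDHB, TPI1, PFKP, PFKM, PDK1, EGLN3, SLC2A1, HK1, PKM and P4HA2 held neither. A match describes letters, not a binding site, and genes with matches were among those that were higher, lower and not called with miR2.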

How the data were processed

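Total RNA of 16 tumours was measured on the HuGene-1_0-st-v1 array. The authors deposited log2 values for 28869 transcript clusters, and the labels name R 2.10 and oligo 1.8 in the submitters' processing notes. The normalization is not given in the sources used here. Gene symbols come from the platform annotation: 19310 clusters carry 1 symbol, 1752 several and 7807 none. Clusters with 1 symbol were used, the one with the highest mean for each gene, which gave 18377 genes with no filter on low values. Promoter sequences came from RefSeq, and the motifs ACGTG and GCGTG were searched for in them.

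All genes were fitted at once in limma 3.58.1 (R 4.3.3), with a mean for each of 3 groups, moderated variances and 13 residual degrees of freedom. Benjamini-Hochberg adjustment ran over all genes within a contrast, and a gene passed at an adjusted p below 0.05. The contrast of both hairpins weighted them equally, and intervals are at the 95% level. The fit was tested on simulated data. The members and lists were chosen with earlier results of these data known. Values in all tumours are given for up to 16 members that passed in a contrast, by smallest adjusted p, and always for CA9, VEGFA, SLC2A1, HK2, PGK1, LDHA and PDK1, of which CA9 had no value. Of each other pathway list at most 4 genes with the smallest adjusted p could be named. NDRG1, BNIP3 and GAPDH were added after their values were seen. The array sets rest on RMRP, RPPH1, SNORA65, RNU4-1 and RNU4-2.

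Alternatives were 3 normalizations (quantile, median centring and cyclic loess), a filter on low genes, the mean over a gene's clusters, an intensity trend, weighted arrays, a replicate block, a choice of controls (2 and 5, or 1, 3, 4 and 6), a block for the array set, each set by itself, a fit of only the groups compared, and leaving out each tumour. Leaving out SHP2 miR2 tumours 1 and 3 was added after seeing the data. Plots were drawn with matplotlib 3.10.9.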

Additional observations from a re-analysis of the deposited data

Results flagged for a closer look

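Among 68 groups of 6 or 7 tumours examined for a tumour far from the rest, 1 stood out, where chance alone marks about 1 in 20. The rule reads the gap between the most extreme tumour and its nearest neighbour. Tumours that lie apart together can therefore go unmarked, as SHP2 miR1 tumours 1 and 5 did for NDRG1 (8.68 and 8.48). PFKM, the muscle-type phosphofructokinase, had a log2 signal of 6.42 in SHP2 miR1 tumour 5, the lowest of its group, with 6.67 to 6.82 in the other SHP2 miR1 tumours. That tumour was among the highest of its group for NDRG1, EGLN3, BNIP3 and PDK1.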

How the results depend on the processing

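Members passing for both hairpins, miR1, miR2 and between hairpins numbered 12, 1, 12 and 11. Leaving out each tumour gave 7 to 12, 0 to 4, 8 to 14 and 3 to 13, with the lowest values for both hairpins without control 1, 3 or 6 or SHP2 miR2 tumour 3, for miR1 without control 3, 4 or 6 (limma, 4 with an unadjusted p below 0.05 each), and between hairpins without SHP2 miR2 tumour 3. Against controls 2 and 5 alone 0, 0 and 3 passed with both hairpins, miR1 and miR2, and SLC2A3 for both hairpins reversed to 0.0197 (adjusted p = 0.997). Against controls 1, 3, 4 and 6 alone 9 passed with miR1. In set B alone 1 passed for both, 0 for miR1 and 4 between hairpins, and in set A alone 0 for miR1 (unadjusted p below 0.05 for 4 and 2). The set as a block gave 2 for miR1 and 7 between hairpins. For miR1, cyclic loess gave 2, array weights 7, and the filter on low genes 0, with 5 at an unadjusted p below 0.05. Between hairpins, quantile normalization gave 6 and cyclic loess 4. Without SHP2 miR2 tumours 1 and 3, an alternative chosen after seeing the data, 5 passed for both, 2 for miR2 and 1 between hairpins; this leaves 1 SHP2 miR2 tumour, assumed to vary like the other groups, so fewer calls follow from its construction. The other alternatives gave counts within 1.5 times those above. The causes were not tested. The replicate numbers did not pair the tumours (5 of 12 same-numbered pairs correlated above 0.1, median -0.06). With the replicate number as a block, 17 members passed between hairpins. Over all genes the number called ranged over 138 to 7047 for both hairpins (3414 in the fit reported), 1 to 3454 for miR1 (874), 450 to 8868 for miR2 (5508) and 304 to 7180 between hairpins (4136).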
